A study of Mus musculus with 17 samples.

Results

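Interferon-stimulated genes were followed through 17 mouse mammary gland libraries as 44 named genes, taken by matching gene symbols in the deposited tables. Each of the 44 symbols occurred once in each table, among 19782 genes in the knockout table, 17130 in the CXCR4 sort table, 18909 in the culture table and 27040 entries in the P4 table. The rule used symbols only and no measured value, but the 44 genes were chosen with earlier results of these data known. The genes were grouped by what their products do: 4 signalling and transcription factors, 7 nucleic acid sensors, 10 effectors that bind or degrade RNA, 7 other antiviral effectors, 9 interferon-inducible GTPases and 7 further interferon-stimulated genes.

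Cells that detect viral nucleic acid secrete type I interferons, which bind the receptor made of IFNAR1 and IFNAR2 and act through the kinases JAK1 and TYK2. A transcription factor complex that holds STAT2 and IRF9 then binds interferon response elements in the promoters of many of these genes, while interferon gamma acts mainly at GAS elements. Macrophages carry many of the sensors and can both make and answer interferon, and a low tonic interferon signal keeps many of these genes expressed in tissue macrophages without infection.

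The series asked how CXCL12 and its receptor CXCR4 connect mammary epithelium and macrophages. All cells came from mammary glands of virgin mice, and macrophages were sorted on F4/80 and CD11b. The knockout experiment held 8 macrophage libraries, 2 in each group: LysmCre+ controls, LysmCre+, Cxcr4fl/fl mice, K8Cre+ controls, and K8Cre+, Cxcl12fl/fl mice. The Lysm promoter drives Cre in the myeloid lineage and the K8 promoter in luminal cells of the gland. Both control groups are labelled with the recombinase and without the floxed allele. A further 3 libraries came from macrophages sorted by surface CXCR4, 2 labelled CXCR4+ and 1 labelled CXCR4-. Wild type macrophages cultured in RPMI with 2% FBS gave 4 libraries, 1 per condition: no treatment, CXCL12 as recombinant protein, GSK690693 (an inhibitor of the kinase AKT), and CXCL12 with GSK690693. P4 cells, a Lin-CD24+CD29high basal population enriched for mammary stem cells, gave 1 library from K8Cre+ and 1 from K8Cre+, Cxcl12fl/fl mice. The labels give no age, dose, treatment time or number of animals per library, so the spread between libraries that p-values rest on may be technical. In the sort that spread was taken wholly from a mean-variance trend over all genes, and the CXCR4- group had 1 library.

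Depth, in units of 1000000 reads, was 8.60 to 37.2 in the knockout libraries, 23.2 to 28.8 in the sort and 14.3 to 29.0 in culture. The replicate 1 libraries of both controls stood apart, with 30.7% (LysmCre+) and 37.2% (K8Cre+) of listed genes at 0, against 8.31% to 25.3% in the other 6 libraries of that experiment. In culture the library with both agents had 31.0% of genes at 0, against 12.5% to 19.8% in the other 3. Cxcr4 was 819 and 318 CPM (reads per 1000000 counted) in LysmCre+ and 232 and 140 CPM in LysmCre+, Cxcr4fl/fl macrophages, without passing the test. Cxcl12 was not lower in either K8Cre+, Cxcl12fl/fl cell type, at 58.2 and 164 against 11.7 and 149 CPM in macrophages and 350 against 270 FPKM in P4 cells. Lyz2, the locus that carries the Lysm-Cre allele, was 67.4 and 51.7 CPM in LysmCre+, Cxcr4fl/fl libraries against 10230 and 2780 CPM in their controls. The labels do not give the Cre copy number, and its part in this pair was not tested. Cxcr4 transcript was 632 and 875 CPM in the CXCR4+ libraries and 772 CPM in the library labelled CXCR4-, although mRNA does not measure the surface protein used for the sort. The list of 10 macrophage markers summed to 3420 to 15980 CPM over the 15 macrophage libraries, and 1 of the 10, Fcgr1, was at 0 in 3 of them. P4 cells carried 7 basal markers at a sum of 5230 and 6788 FPKM against 25.1 and 44.8 FPKM for the 9 macrophage markers found there.

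The genes share promoter letters that the symbol rule did not use. Windows of 300 bases around the RefSeq transcription start (GRCm38.p6, 250 before and 50 after) were on hand for 32 of the 44 genes. The core of the interferon response element, GAAANNGAA on either strand, occurred in 21 of these 32 (65.6%) and in 9.76% of the windows' 27025 genes. It occurred at least 2 times, overlapping matches included, in 11 of 32 (34.4%) against 0.736% of all genes. The GAS letters TTCNNNGAA occurred in 9 of 32 (28.1%) against 9.55%, and in 1 gene a GAS match overlapped a response element core. The 150 bases before the start are shown for 5 genes that each hold a match there. Each GAAANNGAA match, or its reverse complement, is in capitals. Genes without a match, among them Oasl1, are not shown. Ifit1 lies on the plus strand (chr19:34640739-34640888), and the other 4 on the minus strand: Isg15 (chr4:156200819-156200968), Rsad2 (chr12:26456453-26456602), Ifih1 (chr2:62646256-62646405) and Bst2 (chr8:71537473-71537622). All are written 5′ to 3′ in the direction of transcription.
Ifit1: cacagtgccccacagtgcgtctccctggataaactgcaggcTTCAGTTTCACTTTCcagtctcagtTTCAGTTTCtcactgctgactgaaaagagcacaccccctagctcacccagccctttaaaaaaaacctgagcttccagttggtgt
Isg15: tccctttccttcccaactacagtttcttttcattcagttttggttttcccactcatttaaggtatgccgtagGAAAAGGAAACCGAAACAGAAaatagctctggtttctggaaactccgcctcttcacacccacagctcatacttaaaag
Rsad2: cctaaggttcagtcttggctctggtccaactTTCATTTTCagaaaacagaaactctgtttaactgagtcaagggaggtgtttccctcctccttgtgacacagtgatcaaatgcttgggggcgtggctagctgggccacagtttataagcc
Ifih1: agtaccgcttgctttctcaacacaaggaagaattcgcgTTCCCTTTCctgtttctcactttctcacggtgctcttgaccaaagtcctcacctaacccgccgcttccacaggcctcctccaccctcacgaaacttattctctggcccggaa
Bst2: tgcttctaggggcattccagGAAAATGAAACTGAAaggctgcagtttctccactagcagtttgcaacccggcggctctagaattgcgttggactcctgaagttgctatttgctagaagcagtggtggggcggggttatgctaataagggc
In Ifit1, which encodes a protein that binds foreign RNA, 3 matches lay between 109 and 76 bases before the start. In Isg15, which encodes a ubiquitin-like modifier, 3 overlapping matches lay 78 to 58 bases before it. Rsad2 held 1 match and Ifih1 1 in the stretch shown, and Bst2 held 2 that overlapped each other. A match is a description of letters and not evidence of binding.

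Many of the genes are neighbours. In the GENCODE M21 annotation of GRCm38, 23 of the 44 lie in 9 groups with at most 1000000 bases between neighbours, and the 44 are spread over 15 chromosomes. Gbp5, Gbp7, Gbp3 and Gbp2, which encode guanylate-binding proteins, lie at chr3:142493978-142638008. The sensor genes Ifi204, Ifi203 and Ifi205 lie at chr1:173747293-174031810, and Ifit2, Ifit3 and Ifit1 at chr19:34550694-34650009. Rsad2 and Cmpk2 lie at chr12:26442746-26479837. Several of these, and Oas1a, Gvin1 and Trim30a, belong to families of close copies, and whether counting used strand is not given in the sources used here, so reads could be split or shared between copies or overlapping genes.

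The 44 genes had medians of 32.2 to 65.2 CPM per gene in the 11 freshly sorted macrophage libraries, and higher ones in culture without the AKT inhibitor. Their median level was 35.9 and 48.4 CPM in LysmCre+, 54.0 and 50.3 in LysmCre+, Cxcr4fl/fl, 65.2 and 45.8 in K8Cre+ and 50.4 and 44.5 in K8Cre+, Cxcl12fl/fl macrophages. It was 60.7 and 49.2 CPM in CXCR4+ cells and 32.2 CPM in the CXCR4- library. In culture it was 89.0 CPM untreated, 95.2 with CXCL12, 42.9 with the AKT inhibitor and 43.97 with both. The 2 libraries without inhibitor were the highest of the 15, and the 4 groups of the knockout experiment overlapped. The culture and fresh tables were normalized separately, so levels set across them are a description.

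**Figure D1:**
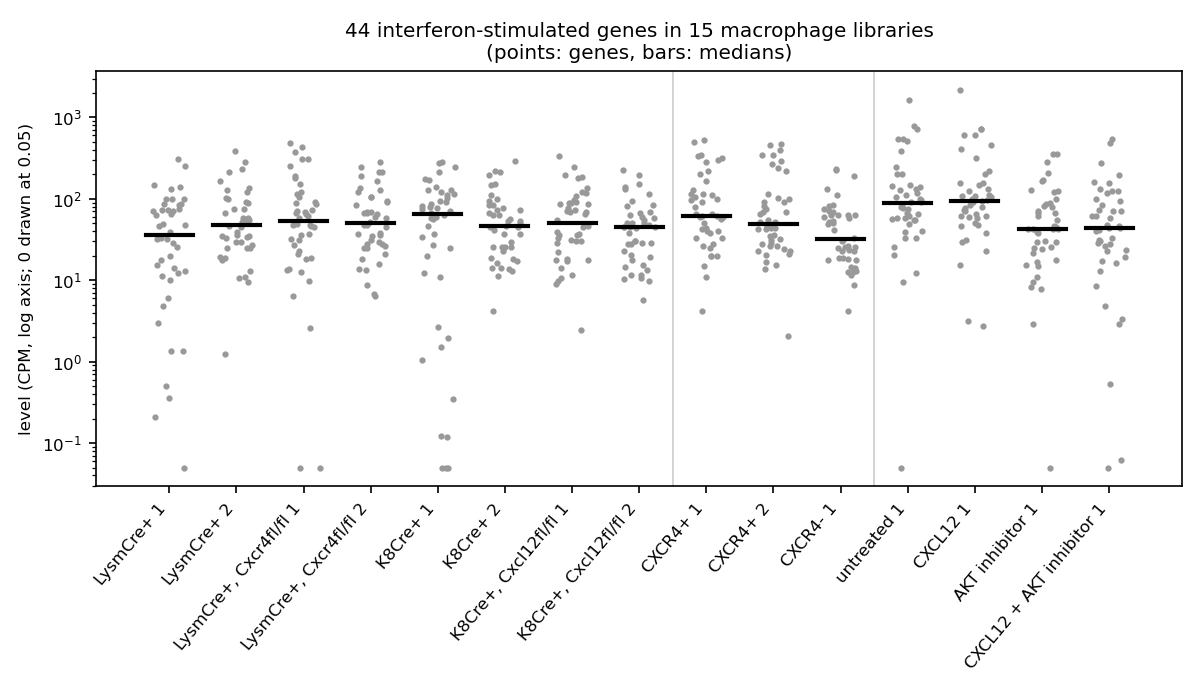
Levels in CPM on a log axis of the 44 genes (points) and their median (bar) in each of the 15 macrophage libraries, with the knockout, sort and culture tables separated by lines. The untreated and CXCL12 cultures have the highest medians, 89.0 and 95.2 CPM, and the CXCR4- library the lowest, 32.2 CPM.

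Which genes dominated differed between the tables. Per kilobase of exon, Rsad2 had the highest median level in culture, 246.5 CPM per kb, followed by Ifit1 at 165 and Oasl1 at 121. In the sort Oasl1 led with 115 CPM per kb, followed by Ifit1 at 76.4 and Rsad2 at 74.0. In the knockout libraries the same scale put Ifi27l2a first at 84.1 CPM per kb, then Gbp2 at 60.4 and Trim30a at 52.9, while Rsad2 was at 25.4 and Ifit1 at 14.5. Isg20, an exonuclease that degrades single-stranded RNA, was the lowest of the 44 on this scale in each of the 3 tables, with at most 6.83 CPM in any macrophage library. Among the 15 libraries Rsad2 ranged from 54.0 CPM in the CXCR4- library to 2160 CPM in the CXCL12 culture.

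The sort by CXCR4 asked how macrophages with and without the surface receptor differ. Its p-values and SEs use a variance from the trend over all genes, with no part from a gene's own libraries. In CXCR4+ cells 10 of the 44 genes rose and none fell (limma, Benjamini-Hochberg adjusted over 14411 genes): Oasl1, Ifit1, Rsad2, Ifih1, Oas2, Ifi204, Ifi203, Ifi44, Ifit2 and Gbp7. Over all genes tested 5.06% were called higher and 3.4% lower. The median log2 difference of the 44 was 0.56, against -0.20 over all genes. In 29 genes both CXCR4+ libraries lay above the CXCR4- library, and in 5 both lay below it, where 32.1% and 44.6% of all genes did so. At an unadjusted p under 0.05, 16 were higher and 1 lower, against 1347 and 1384 of the 14411 genes tested.

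Among the RNA-binding effectors, Oasl1 was 299.6 and 469 CPM in CXCR4+ cells and 12.7 CPM in the CXCR4- library. Its product restrains translation of Irf7 in mouse cells. The log2 difference was 4.78 ± 0.37 (SE, adjusted p = 6.19e-36), the greatest of the 44. Ifit1 was 203 and 266 CPM against 23.1 CPM, a log2 difference of 3.28 ± 0.37 (adjusted p = 3.78e-16). Oas2, which makes the second messenger that activates RNase L, was 165 and 102 CPM against 24.6 CPM (log2 difference 2.35 ± 0.40, adjusted p = 3.57e-07). Ifit2 was 79.1 and 42.6 CPM against 18.7 CPM (log2 difference 1.59 ± 0.48, adjusted p = 0.015). In these 4 genes both CXCR4+ values were above the CXCR4- value. Close relatives of these genes did not pass. Oas1a was 25.2 and 21.2 CPM against 31.5 CPM, and Oas3 97.1 and 74.8 against 62.5 CPM. Ifit3 was 43.7 and 20.7 CPM against 17.8 CPM (adjusted p = 0.53).

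All 7 nucleic acid sensors had a log2 difference above 0 and 3 rose. Ifih1, the sensor MDA5 of long double-stranded RNA, was 503 and 395 CPM in CXCR4+ cells and 83.2 CPM in the CXCR4- library, a log2 difference of 2.41 ± 0.34 (adjusted p = 1.02e-10). Ifi204, a member of the DNA-binding p200 family, was 219 and 219 CPM against 50.5 CPM (log2 difference 2.09 ± 0.36, adjusted p = 4.2e-07). Its neighbour Ifi203 was 349 and 294 CPM against 113 CPM (log2 difference 1.5 ± 0.34, adjusted p = 0.000334). The 2 replicates were close in all 3. Ddx58, the sensor RIG-I of RNA ends, was 111 and 90.6 CPM against 82.3 CPM and did not pass (log2 difference 0.28 ± 0.38, adjusted p = 0.74). Ifi205, the third gene of that chromosome 1 group in the list, was 15 and 42.5 CPM around a CXCR4- value of 18.0 CPM.

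Of the remaining antiviral effectors Rsad2 rose. Its product, viperin, makes a chain-terminating nucleotide. Rsad2 was 321 and 464 CPM in CXCR4+ cells and 54.0 CPM in the CXCR4- library (log2 difference 2.81 ± 0.34, adjusted p = 4.27e-14). Its neighbour Cmpk2, a mitochondrial nucleotide kinase, was 40.3 and 31.8 CPM against 23.3 CPM and did not pass (log2 difference 0.60 ± 0.52, adjusted p = 0.59). Isg15 was 42.6 and 46.3 CPM against 18.1 CPM (adjusted p = 0.12), and Bst2, the tether that holds budding virus at the cell surface, was 28.2 and 28.9 CPM against 12.9 CPM (adjusted p = 0.32). Both lay above the CXCR4- value in each replicate without passing. Mx1 was 57.5 and 36.3 CPM against 62.9 CPM. Its intact product is a dynamin-like GTPase that blocks influenza virus, and the deposited annotation lists Mx1 and Mx2 as polymorphic pseudogenes.

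In the GTPase group 1 of 9 rose: Gbp7 was 105 and 99.9 CPM against 41.5 CPM (log2 difference 1.28 ± 0.40, adjusted p = 0.0205). Gbp2 was 98.4 and 116 CPM against 70.8 CPM (adjusted p = 0.43), and Irgm1, a regulator of autophagy and of other GTPases, was 90.6 and 64.4 CPM against 59.8 CPM (adjusted p = 0.70). Ifi44, of the further genes, was 38.1 and 43.9 CPM against 8.75 CPM (log2 difference 2.10 ± 0.57, adjusted p = 0.00467). None of the 4 signalling genes passed. Stat2 was 115 and 52.6 CPM around a CXCR4- value of 69.2 CPM, Irf9 59.1 and 68.9 around 62.8 CPM, and Irf7, the factor that amplifies type I interferon, 60.8 and 69.2 CPM against 32.8 CPM (adjusted p = 0.19). Usp18, which removes ISG15 from proteins and blocks the receptor, was 60.4 and 26.7 CPM against 74.9 CPM (adjusted p = 0.26).

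**Figure D2:**
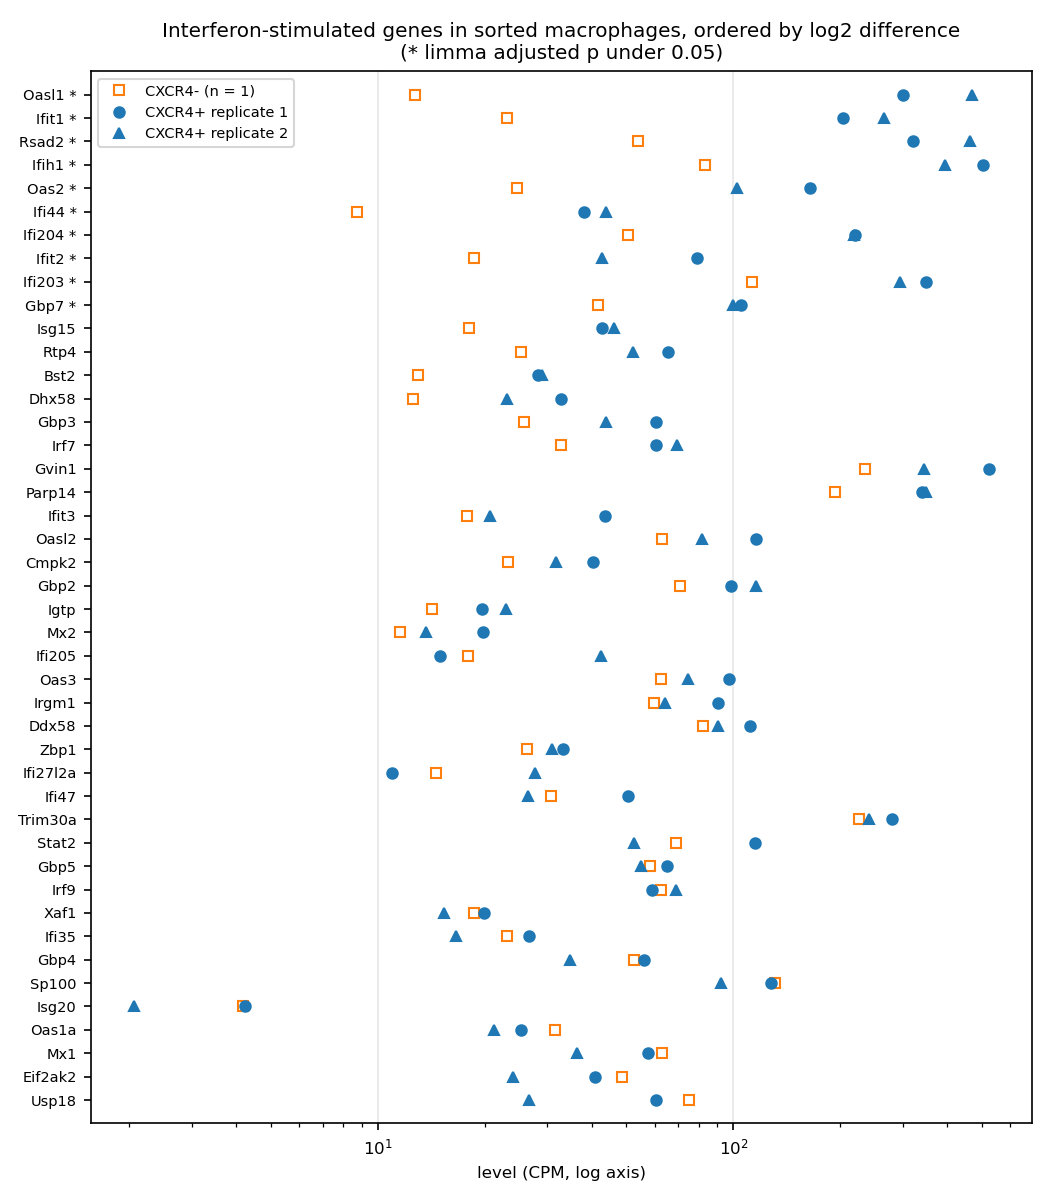
Levels in CPM on a log axis of each of the 44 genes in the 2 CXCR4+ libraries (filled symbols) and the CXCR4- library (open squares), ordered by log2 difference, with an asterisk for the 10 genes that passed. Oasl1 is at the top with 299.6 and 469 CPM against 12.7 CPM, and in Usp18 at the bottom both CXCR4+ values lie below the 74.9 CPM of the CXCR4- library.

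Genes upstream were read in the same fit. Of 13 sensors and adaptors measured, 4 rose and none fell, with all 13 log2 differences above 0. Tlr7, the endosomal receptor for single-stranded RNA, was 350 and 324 CPM against 72.6 CPM (log2 difference 2.20 ± 0.34, adjusted p = 1.32e-08). The receptor genes Ifnar1, at 163 and 144 against 126 CPM, and Ifnar2, at 54.1 and 59.6 against 43.7 CPM, did not pass. Ifngr1 was 154 and 148 against 243 CPM, Ifngr2 57.1 and 113 against 92.2 CPM, and neither passed. Ifnb1, the ligand interferon beta, was 3.99 and 11.4 CPM against 2.24 CPM (adjusted p = 0.57), and Ifng was 2.19 and 0 CPM against 4.53 CPM. Of 74 further interferon-stimulated genes measured outside the 44, 14 rose and 3 (Helz2, Ms4a4c and Samhd1) fell, where 5.06% of all genes were called higher and 3.4% lower. Among those that rose, Ifi207, a further gene of the p200 family, was 1514 and 1438 CPM against 226.7 CPM (log2 difference 2.697 ± 0.33, adjusted p = 1.06e-13), Lgals3bp was 187 and 252 against 32.7 CPM, and Ddx60 was 293 and 114 against 33.7 CPM.

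Markers of other cells differed between the same libraries. The 10 macrophage markers summed to 13360 and 15980 CPM in CXCR4+ cells and 7340 CPM in the CXCR4- library, with none at 0. Of these sums Lyz2 made up 5985 and 7367 against 5511 CPM. All 10 reached 10 CPM in both CXCR4+ libraries and 7 did in the CXCR4- library. Mrc1 was 2463 and 2766 against 144 CPM and C1qa 405 and 405 against 9.74 CPM. Itgam, at 285 and 330 against 305 CPM, was the only marker not higher in both CXCR4+ libraries. The 9 conventional dendritic cell markers summed to 656 and 667 CPM against 2349 CPM. Monocyte markers, 9 in number, summed to 1298 and 1169 against 2785 CPM, and the 5 eosinophil markers found to 5.66 and 3.93 against 151.5 CPM. Of the dendritic cell markers Xcr1 went the other way, at 24.2 and 28.2 against 5.43 CPM. The monocyte marker Ly6c2 was mixed, at 65.8 and 141 against 122 CPM. All other markers found of these lists were lower in both CXCR4+ libraries. The 6 plasmacytoid dendritic cell markers found summed to 437 and 353 against 394 CPM: Siglech, Tcf4 and Ly6d were higher in both CXCR4+ libraries, and Spib, Runx2 and Ccr9 were lower in both. The part of these cells in the higher sensor and effector levels was not tested, and in bulk RNA more cells of a type and more RNA per cell cannot be told apart. The 10 calls rest on 1 CXCR4- library and a variance taken wholly from the trend over all genes: without the mean-variance trend no member passed (lowest adjusted p = 0.228), and without the filter on low values none did (lowest adjusted p = 0.258).

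Response element cores were found in 6 of the 8 promoter windows of genes that rose in CXCR4+ cells, against 21 of 32 for the whole set. The 2 windows without one were those of Oasl1, which had the greatest difference, and Ifit2.

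The cultures asked whether CXCL12 and AKT, a kinase downstream of CXCR4, alter macrophage gene expression. Most of the 44 genes had lower levels with the AKT inhibitor GSK690693, with or without CXCL12, and CXCL12 alone left their median ratio near 0. Each condition was 1 library, so there is no test, and log2 ratios carry a prior of 2 reads (0.0993 CPM). With the inhibitor alone the median log2 ratio to untreated cells was -1.18 over 43 genes, against 0.00 over all genes. Of the 43, 38 were below 0, 26 were at least 2-fold lower and none 2-fold higher, where 27.1% of all genes were 2-fold lower and 25.3% 2-fold higher. With the inhibitor added to CXCL12 the median was -1.29 over 44 genes against -0.48 over all genes. There 40 of 44 were below 0, 30 at least 2-fold lower and none 2-fold higher, against 43% lower and 19.2% higher over all genes. Over all genes of at least 10 CPM in the higher library the median was 0.06 without and 0.07 with CXCL12. Of those genes 16.4% and 24.2% were 2-fold lower. The 2 ratios share no library, and 19 of 43 genes were at least 2-fold lower in both, against 12.7% of 13120 genes.

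Counting error alone was small for most of these genes: 10 CPM in the shallowest culture library corresponds to 143 reads and an exact Poisson 95% interval of 8.42 to 11.8 CPM, which covers counting error only.

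Rsad2 was 1657 CPM untreated, 2160 CPM with CXCL12, 358 CPM with the inhibitor and 480 CPM with both. Ifit1 was 711, 711, 166 and 161 CPM in that order. Ifih1 was 542, 610, 210 and 196 CPM. In each of these both libraries with inhibitor lay below both without, and the libraries within a pair were closer to each other than to the other pair. Oasl1 was 542 CPM untreated, 461 with CXCL12, 172 with the inhibitor and 124 with both, with the same split by inhibitor. Isg15 was 55.6, 83.4, 9.64 and 33.1 CPM, and Mx1 87.3, 70.0, 15.4 and 26.7 CPM. In Isg15 and Mx1 the inhibitor alone gave the lowest value, with log2 ratios of -2.52 and -2.50 to untreated cells. Zbp1, a sensor of Z-form nucleic acid, was 20.2, 22.9, 2.86 and 23.4 CPM, and Oas1a was 49.7, 29.5, 7.83 and 47.6 CPM. Eif2ak2, which encodes the kinase PKR that halts translation, was 80.0, 101, 14.9 and 44.3 CPM. These 3 were likewise lowest with the inhibitor alone, and Zbp1 and Oas1a were not low with both agents. Ifi204 was 127, 217, 42.6 and 99.5 CPM, higher with CXCL12 in both pairs.

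**Figure D3:**
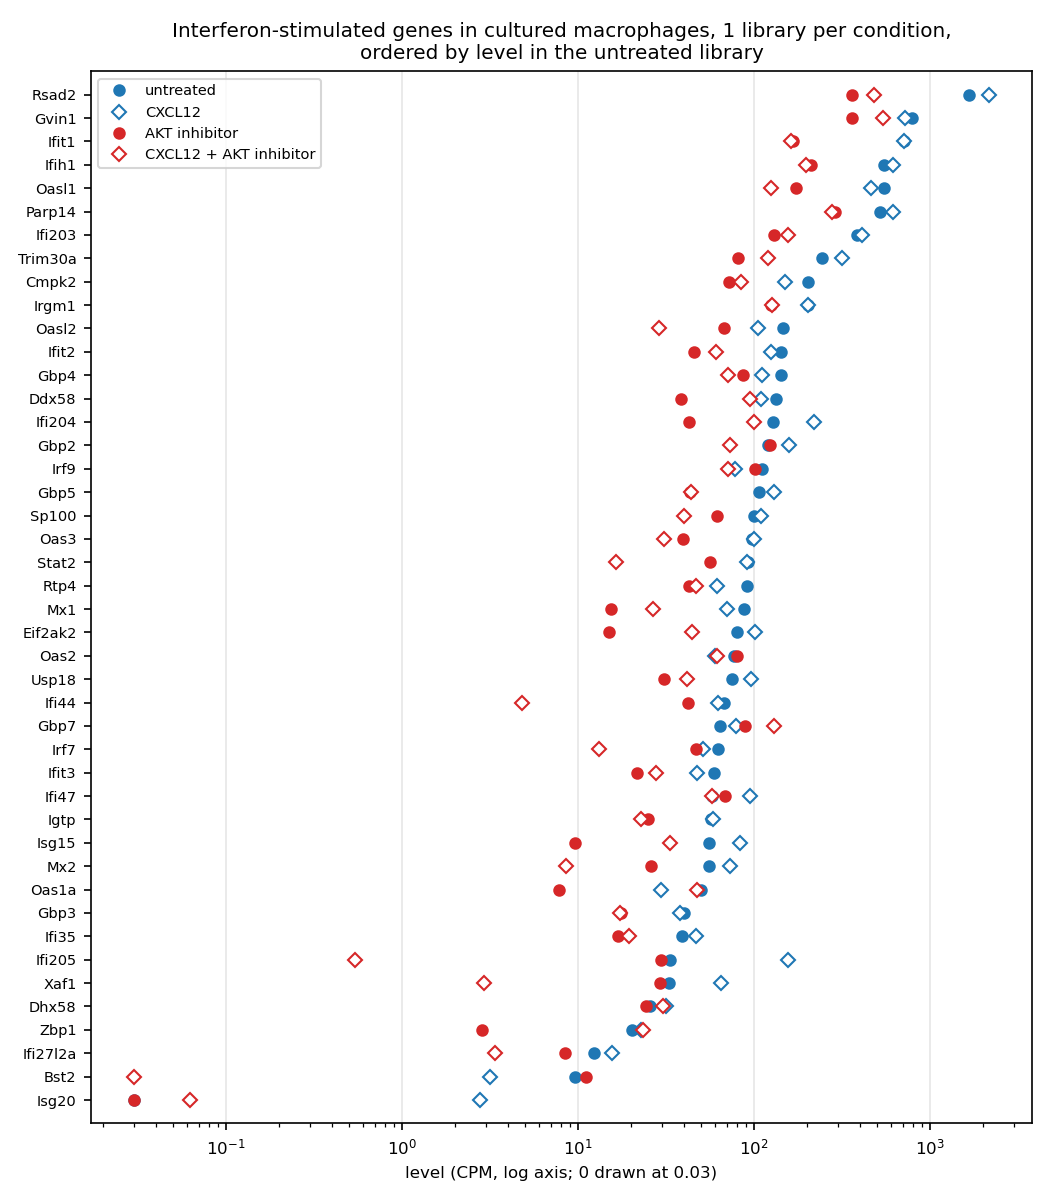
Levels in CPM on a log axis of the 44 genes in the 4 cultures, 1 library each, ordered by level in untreated cells; blue symbols are without and red symbols with the AKT inhibitor. For most genes both red symbols lie left of both blue ones, as for Ifit1 with 166 and 161 against 711 and 711 CPM, while Gbp7 lies the other way.

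By role, the RNA-binding effectors had a median log2 ratio of -1.65 with the inhibitor alone (8 of 9 at least 2-fold lower) and -1.43 on CXCL12 (7 of 10). The nucleic acid sensors stood at -1.58 (5 of 7) and -1.13 (4 of 7), and the other antiviral effectors at -1.50 (6 of 7) and -1.39 (5 of 7). The GTPases had a median of -0.71 in both, with 4 of 9 at least 2-fold lower each time. The signalling factors stood at -0.56 (1 of 4) and -1.57 (3 of 4), and the other interferon-stimulated genes at -0.68 (2 of 7) and -1.44 (7 of 7). Over all genes 27.1% and 43% were 2-fold lower, and over genes of at least 10 CPM in the higher library 16.4% and 24.2%. The 4 of 9 GTPases on CXCL12 were thus near the 43% of all genes but above the 24.2%. All 9 GTPases were above 10 CPM in every culture. Gbp7 had the highest of the 44 ratios in both comparisons, at 64.3 CPM untreated, 78.6 with CXCL12, 88.5 with the inhibitor and 130.2 with both. Irgm1 was 201.5, 202 CPM without and 125, 126 CPM with the inhibitor. Gbp2 was 119.5 CPM untreated and 123 CPM with the inhibitor, but 158 CPM with CXCL12 and 73.0 CPM with both. Ifi47, another GTPase, was 57.9, 94.2, 67.8 and 57.6 CPM in the order untreated, CXCL12, inhibitor, both. Outside the GTPases, Oas2 was 76.8, 60.2, 79.8 and 61.2 CPM, close with and without inhibitor, while its neighbour Oas3 was 96.7, 99.2, 39.2 and 30.9 CPM.

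Signalling members differed from one another. Irf9 was 110 CPM untreated and 101 CPM with the inhibitor, and 78.1 and 70.8 CPM in the 2 cultures with CXCL12. Stat2 was 91.8, 90.9, 55.7 and 16.4 CPM, and Irf7 62.0, 50.9, 46.6 and 13.2 CPM, both lowest with both agents. Usp18 was 75.1, 96.2, 30.6 and 41.7 CPM. Outside the 44, both genes of the type I receptor were level or higher with the inhibitor: Ifnar1 was 89.7, 83.1, 87.1 and 116 CPM, and Ifnar2 was 61.6, 49.7, 124 and 93.2 CPM. Ifngr1 was 63.1, 33.5, 71.6 and 42.7 CPM, and Ifngr2 was 64.0, 41.6, 25.3 and 68.5 CPM. Ifnb1 was 4.68, 6.30, 4.399 and 0.0624 CPM, the last being 1 read. Of 73 further interferon-stimulated genes 17 (23.3%) were at least 2-fold lower and 7 higher with the inhibitor alone, with a median of -0.40, and of 74 on CXCL12 34 (45.95%) were lower and 7 higher. These lower shares were near those of all genes, 27.1% and 43%, at the same minimum of 1 CPM. Over all genes of at least 10 CPM the lower shares were 16.4% and 24.2%, and the further genes were not counted at that minimum.

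Some genes had low values in the library with both agents, whose floor of 3 reads was 0.187 CPM. Of those given here only Bst2 was under that floor. Bst2 was 9.65 CPM untreated, 3.17 with CXCL12, 11.0 with the inhibitor and 0 with both, which is at least 16.9-fold lower than with CXCL12 when 0 is set to 3 reads. Ifi205 was 33.4, 155, 29.4 and 0.538 CPM, Xaf1 33.0, 64.9, 29.3 and 2.93 CPM, and Ifi44 67.5, 62.0, 42.2 and 4.80 CPM. Mx2, a relative of Mx1, was 55.0, 72.4, 25.9 and 8.48 CPM. Bst2, Ifi205, Xaf1 and Ifi44 had their lowest values with both agents, in the library with the most genes at 0. These low values and the state of that library cannot be told apart with 1 library. The order of the ratios across genes was not shared between the 2 inhibitor comparisons: over the 43 genes, whose values come from the same 4 libraries, Pearson's r was -0.22 and Spearman's rho -0.04.

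**Figure D4:**
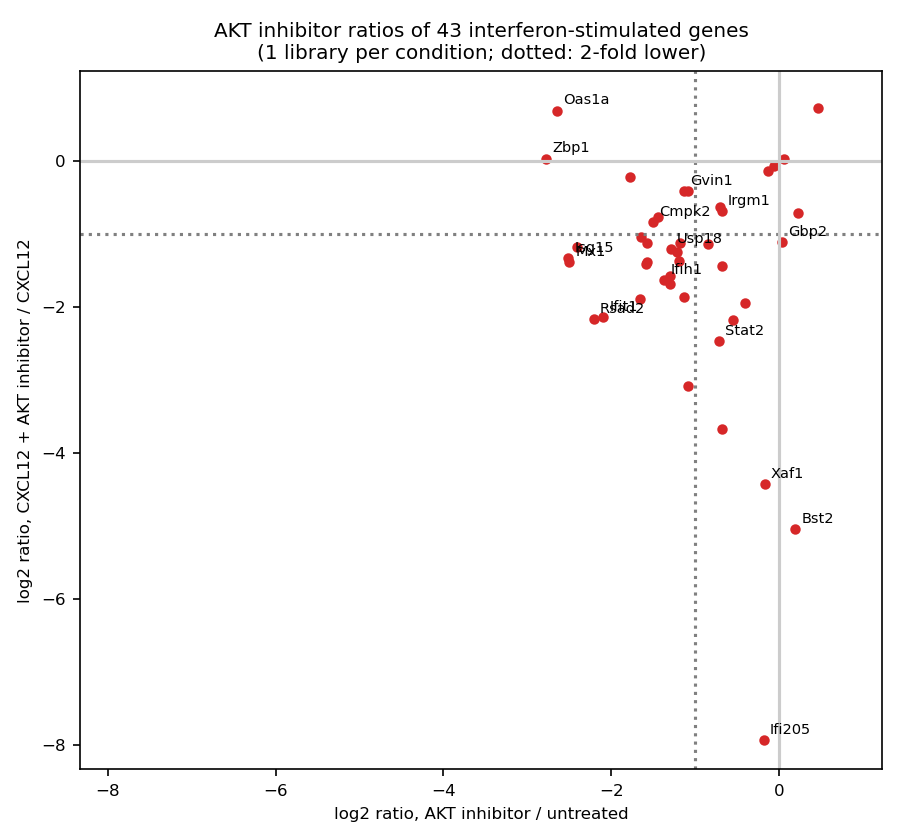
Log2 ratio of the AKT inhibitor to untreated cells (x axis) against that of both agents to CXCL12 alone (y axis) for 43 genes, 1 library per condition, with dotted lines at 2-fold lower. Of the 43 genes 36 lie below 0 on both axes and 19 beyond both dotted lines, while Ifi205, Xaf1 and Bst2 are low on the y axis alone.

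CXCL12 alone gave a median log2 ratio of 0.06 over the 44 genes, with 2 at least 2-fold higher and 1 lower, against 24.3% higher and 22.2% lower over all genes. Isg20 and Ifi205 were the 2 higher, Isg20 at 2.75 CPM against 0. Bst2 was the 1 lower. Among genes of at least 10 CPM the next lowest ratios were those of Oas1a, Rtp4 (61.7 against 90.8 CPM), Irf9 and Oasl2 (105 against 146.5 CPM). Added to the inhibitor, CXCL12 gave a median of -0.02 over 43 genes, with 6 at least 2-fold higher and 9 lower, where 20% of all genes were higher and 40.1% lower. The highest ratio was that of Zbp1, at 23.4 against 2.86 CPM, and the lowest that of Bst2, which was at 0. With CXCL12 alone the shares of 2-fold differences among the 44 were below those of all genes. Raising the minimum to 10 CPM made this gap smaller. Of all genes 11.97% were then 2-fold higher and 14.33% lower with CXCL12 alone. Among the 42 members left, 1 was higher and 0 lower. The 24.3% and 22.2% thus include many low genes, whereas most members were above 10 CPM.

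The 10 macrophage markers summed to 7582 CPM untreated, 7448 with CXCL12, 6459 with the inhibitor and 9999 with both, of which Lyz2 made up 5952, 5681, 4941 and 8034 CPM. In the same order the 2 neutrophil markers found summed to 32.6, 15.9, 2.03 and 39.5 CPM, the 6 T and NK cell markers found to 3.93, 26.5, 0.349 and 15.8 CPM, and the 3 eosinophil markers found to 0.851, 23.5, 17.8 and 13.6 CPM. The 5 endothelial markers were present in every culture, at 1551, 1373, 1866 and 1596 CPM, with Cdh5, which encodes VE-cadherin, at 696.5, 678.5, 869 and 774 CPM. In the freshly sorted libraries the same 5 summed to 1.28 to 178 CPM. The part of RNA from these other cells in the culture values was not tested. The size of the sort difference did not track the inhibitor ratio: across 43 genes r between the sort difference and the inhibitor ratio was -0.05, and across 44 it was -0.03 with CXCL12 present. Of the promoter windows on hand, 11 of 15 genes at least 2-fold lower in both inhibitor comparisons held a response element core (73.3%). In the whole set 21 of 32 did (65.6%), a similar share.

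The knockouts asked what loss of the receptor in myeloid cells, or of the ligand in luminal cells, does to macrophages. None of the 44 genes passed in either (limma, adjusted over 17275 genes). For LysmCre+, Cxcr4fl/fl against LysmCre+ the lowest adjusted p among the 44 was 0.245, and 0.00579% of all genes passed, which is 1 gene, Lyz2. At an unadjusted p under 0.05, 4 members were higher and none lower, against 374 and 201 of the 17275 genes. For K8Cre+, Cxcl12fl/fl against K8Cre+ every member's adjusted p was 1, 0% of genes passed, and no member was under 0.05 unadjusted. Over all genes 415 were higher and 76 lower at that unadjusted threshold. The difference between the knockouts passed for none of the 44 and for 0.00579% of genes. Its unadjusted p was under 0.05 in 2 members, both higher, and over all genes in 165 higher and 263 lower.

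The median log2 difference of the 44 was 0.47 with the Cxcr4 knockout, against 0.14 over all genes. It came from the replicate 1 libraries: within replicate 1 it was 0.59 and within replicate 2 it was -0.01. In 5 genes both knockout libraries lay above both controls and in 2 below, against 16.7% and 8.75% of all genes. With the Cxcl12 knockout the median was 0.01 (0.18 and -0.23 by replicate) against 0.36 over all genes, and 3 genes lay wholly above and 8 wholly below, against 20.4% and 8.02% of all genes. The median of the difference between knockouts was 0.32, against -0.22 over all genes.

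Ifi204 was 0.356 and 127 CPM in LysmCre+ and 191 and 122 CPM in LysmCre+, Cxcr4fl/fl macrophages. Its log2 difference of 3.54 ± 0.84 (SE, adjusted p = 0.245) thus came from 1 control library, being 7.15 within replicate 1 and -0.07 within replicate 2. Gvin1, which encodes a very large interferon-inducible GTPase, was 6.01 and 389 CPM in controls and 305.5 and 281 CPM in knockouts (log2 difference 2.49 ± 0.69, adjusted p = 0.649). In both genes the second control lay beside or above the knockouts. Oasl1 was 130.4 and 32.9 CPM in controls and 488 and 84.6 CPM in knockouts, higher within each replicate number, by 1.90 and 1.34 log2 units, but with groups that overlapped (log2 difference 1.62 ± 0.72, adjusted p = 1). Rsad2 was 63.9 and 165 CPM against 427 and 164 CPM, and Ifit2 32.4 and 36.3 against 2.61 and 37.7 CPM. In Rsad2 1 knockout library stood above the other 3, and in Ifit2 1 knockout library stood below them.

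Other members showed the same spread. Stat2 was 99.0 and 53.6 CPM in LysmCre+, 71.3 and 69.8 in LysmCre+, Cxcr4fl/fl, 62.9 and 63.0 in K8Cre+ and 46.4 and 50.2 CPM in K8Cre+, Cxcl12fl/fl macrophages. It was thus lower in both Cxcl12 knockout libraries than in their controls, by a log2 difference of -0.38 ± 0.75. Ifih1 was 251 and 122, 372 and 137, 94.1 and 98.7, and 178 and 114 CPM in the same order. It was higher in both Cxcl12 knockout libraries (log2 difference 0.56 ± 0.59, adjusted p = 1). Gbp2 was 308.5 and 102, 151 and 188.5, 247 and 153, and 87.7 and 134 CPM. It was lower in both Cxcl12 knockout libraries, by a log2 difference of -0.84 ± 0.59. Irf7 was 14.2 and 56.2 CPM in LysmCre+ and 66.6 and 59.7 CPM in LysmCre+, Cxcr4fl/fl macrophages, with the groups apart (log2 difference 1.12 ± 0.84, adjusted p = 1). It was 81.0 and 36.7 CPM in K8Cre+ and 69.1 and 44.8 CPM in K8Cre+, Cxcl12fl/fl macrophages, which overlapped.

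In the same order of groups, Irf9 was 86.2 and 17.7, 49.3 and 47.9, 20.1 and 45.0, and 72.6 and 48.1 CPM, apart only in the K8-Cre pair. Oas2 was 139 and 57.7, 88.4 and 64.6, 45.9 and 72.2, and 86.6 and 43.4 CPM. Isg15 was 2.97 and 12.9, 22.6 and 8.87, 24.99 and 18.2, and 28.6 and 13.3 CPM. Neither Oas2 nor Isg15 separated a knockout from its control. Mx1 was 47.5 and 74.7, 12.5 and 95.4, 91.1 and 57.0, and 86.5 and 49.8 CPM. Bst2 was 1.34 and 18.7, 47.6 and 18.3, 0 and 11.3, and 10.51 and 17.7 CPM. In Mx1 and Bst2 the groups overlapped as well. Irgm1 was 47.0 and 29.2 CPM in LysmCre+ and 68.2 and 58.3 CPM in LysmCre+, Cxcr4fl/fl macrophages, which were apart (log2 difference 0.75 ± 1.03, adjusted p = 1), and Ifit1 was 101 and 39.6 against 115 and 36.2 CPM. Ifit3, among the 5 smallest p for the difference between knockouts, was 0 and 11.1, 6.47 and 15.9, 67.5 and 25.7, and 17.7 and 10.7 CPM.

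In the K8-Cre experiment low values of the first control library set the differences with the smallest p. Irgm1 was 1.05 and 49.98 CPM in controls and 30.6 and 54.6 CPM in knockouts. Ifit1 was 2.67 and 37.4 against 54.5 and 23.1 CPM, and Gbp7 1.95 and 53.6 against 35.5 and 44.5 CPM. In each the first control library was the lowest of the 4, and the second lay among the knockouts or, for Gbp7, above both. Usp18 was 10.8 and 93.2 against 88.3 and 84.2 CPM, again with 1 low control. Ifi27l2a, which encodes a small interferon-induced protein, went the other way, at 170 and 29.3 against 30.3 and 15.3 CPM (log2 difference -1.67 ± 0.86, adjusted p = 1). In that library Isg20, Bst2 and Xaf1 were at 0, and 5 members were under 3 reads.

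**Figure D5:**
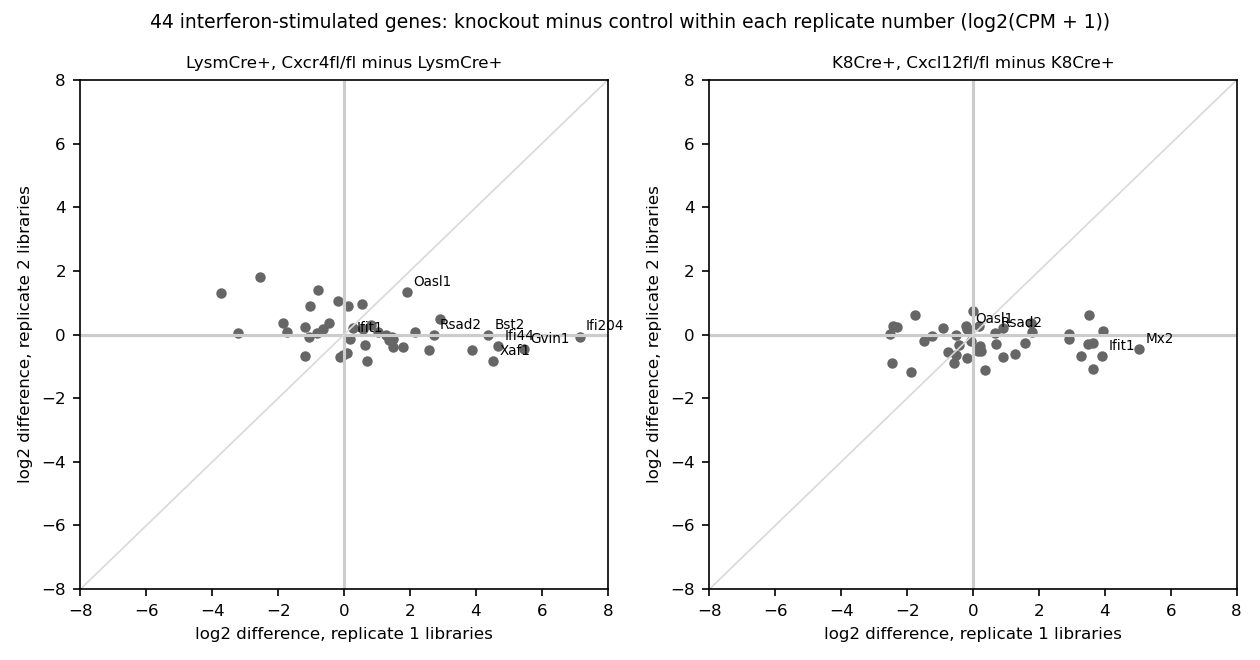
Log2 difference, knockout minus control on log2(CPM + 1), within replicate 1 (x axis) and replicate 2 (y axis) for each of the 44 genes, in the Lysm-Cre (left) and K8-Cre (right) experiments. The points spread widely along x and little along y, with Ifi204 at 7.15 and -0.07 in the left panel.

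Replicates of a group often differed widely in these genes. The 2 LysmCre+ controls differed by at least 2-fold in 27 of the 44 genes (61.4%) against 53.4% of all genes, and the K8Cre+ controls in 23 (52.3%) against 62.5%. The share was 40.9% against 54.15% in LysmCre+, Cxcr4fl/fl libraries and 11.4% (5 genes) against 37.9% in K8Cre+, Cxcl12fl/fl libraries. The receptor genes were not called either. Ifnar1 was 115 and 114 CPM in LysmCre+ and 257 and 134 CPM in LysmCre+, Cxcr4fl/fl macrophages. Ifnb1 was at 0 in both LysmCre+ libraries and 0.653 and 4.04 CPM in the knockouts, and at most 0.146 CPM in the 4 K8-Cre libraries.

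In P4 basal cells the median of the 44 genes was 1.498 FPKM (fragments per kilobase and 1000000 mapped) in K8Cre+ and 2.26 FPKM in K8Cre+, Cxcl12fl/fl cells, against 0.378 and 0.289 FPKM over all listed genes, with 24 and 30 genes at 1 FPKM or more and 4 in each at 10 or more. Over the 33 genes with at least 1 FPKM in the higher library the median log2 ratio was 0.31, against 0.03 over all genes, with a prior of 1 FPKM. Of these 7 were at least 2-fold higher and 4 lower, against 13.5% and 9.68% of all genes, from 1 library per genotype with no test. Irf9 was 14.8 FPKM in the control and 25.6 FPKM in the library labelled Cxcl12 knockout, Gbp2 11.6 and 23.2 FPKM, and Usp18 3.11 and 10.1 FPKM. The first 3 were higher in the knockout library. Irgm1 was 15.4 and 13.8 FPKM and Ddx58 11.6 and 7.26 FPKM, both lower there. Rsad2, at 0.806 and 0.187 FPKM, Ifit1, at 0.659 and 0.846 FPKM, and Oas2, at 0.0747 and 0.988 FPKM, were below 1 FPKM in both libraries, while Oasl1 was 0.252 and 3.74 FPKM. Stat2 was 3.71 and 3.12 FPKM, Irf7 4.48 and 2.95 FPKM and Isg15 3.02 and 0.180 FPKM, all lower in the knockout library. Ifi204 was 0.484 and 1.94 FPKM, Ifih1 2.16 and 2.96 FPKM, Mx1 0.194 and 0.516 FPKM and Bst2 2.54 and 0.176 FPKM. Macrophage markers summed to 25.1 and 44.8 FPKM in the same 2 libraries, and their part in the member levels was not tested. The receptor genes Ifnar1, at 10.4 and 9.92 FPKM, and Ifnar2, at 18.1 and 23.0 FPKM, were above most members, whereas Ifnb1 was listed at 0 in both.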

How the data were processed

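The authors' deposited macrophage tables hold log2 values that, back-transformed, are CPM with 0.0001 added (log2(CPM + 0.0001)), read from the values themselves since no header names the unit. The P4 table was deposited by the authors as FPKM in a Cufflinks-style layout. STAR 2.7.8a, Partek and the build hg38 appear, with no role, per the submitters' processing notes, while symbols and coordinates in the files are mouse; the counting step is not given in the sources used here. Depth was estimated from the value of 1 read in each library.

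Values were returned to CPM, and log2(CPM + 1) of genes with at least 1 CPM in at least 2 libraries was fitted with limma 3.58.1 (R 4.3.3; empirical Bayes with a mean-variance trend, Benjamini-Hochberg over all genes, threshold 0.05). The knockout fit used 8 libraries as 4 group means, and the sort fit used 3. A difference is a log2 difference on the log2(CPM + 1) scale, which understates changes of low genes. Cultures and P4 cells had 1 library per condition: log2 ratios were formed with a prior of 2 reads (1 FPKM in P4 cells) for genes whose higher library reached 1 CPM or FPKM, called at 2-fold, with no test. The scripts were tested on simulated data (python 3.11.15, pandas 2.3.3, scipy 1.17.1). Promoter letters were searched in RefSeq windows of GRCm38.p6 and positions taken from GENCODE M21.

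The members and the pathway and marker lists were chosen with earlier results of these data known. Genes named with values were those that passed a test (up to 12 by p, or the 5 smallest p where fewer than 5 passed), the 4 highest and 4 lowest ratios of at least 10 CPM or FPKM in untested comparisons, a set of 12 members covering the roles, and receptor and ligand genes. Relatives and neighbours set beside these, such as Oas3, Ifit3, Cmpk2 and Ddx58 in the sort, were added after their values were seen. Alternatives varied the pseudocount, filter, scaling, trend, library weights, replicate block and each library in turn. Values from replicate 2 alone and a minimum of 40 CPM in culture were added after seeing the data; the latter is not used as a result, since members can pass it through the higher library alone.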

Additional observations from a re-analysis of the deposited data

Results flagged for a closer look

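With the AKT inhibitor Oas1a had a log2 ratio of -2.65 without CXCL12 and 0.689 with CXCL12, opposite directions whose difference was not tested with 1 library per condition. The ratio of Oas1a for CXCL12 was -0.753 without and 2.59 with the inhibitor. The ratio of Ifi205 for CXCL12 was 2.21 without and -5.53 with the inhibitor. The ratio of Xaf1 for CXCL12 was 0.975 without and -3.28 with the inhibitor. None of these differences between ratios was tested, and the culture with both agents, in which Ifi205 and Xaf1 were low, had 31.0% of genes at 0.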

How the results depend on the processing

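In the CXCR4 sort the members called fell to 0 without the filter on low values and 0 without the mean-variance trend, as did genes called (0 and 0, from 1219); the cause was not tested. The sort has no value without its only CXCR4- library, and without a CXCR4+ library it has no residual degrees of freedom, so only medians (0.49 and 0.73) were obtained. For the Cxcr4 knockout, members called were 2 without the filter and 1 with array weights, and genes called 8 without the filter, 0 without the trend and 6 with array weights. On replicate 2 alone its member median was -0.0069. Leaving out each library gave medians of -0.016 (without LysmCre+ replicate 1) to 0.63, 0 to 2 members and 1 to 150 genes called (150 without LysmCre+ replicate 2). For the Cxcl12 knockout the same gave medians of -0.27 to 0.30, 0 to 1 members and 0 to 151 genes (151 without K8Cre+ replicate 2). For the difference between knockouts it gave -0.19 to 0.51, 0 to 2 members and 1 to 30 genes; genes called were 2 without the filter, 0 without the trend and 2 with array weights. A group left with 1 library was assumed to vary like the others. Median-ratio scaling put the member median of CXCL12 on the inhibitor at 0.14 (all genes -0.20). In P4 cells the member median was 0.44 with a prior of 0.1 FPKM, 0.30 at 5 FPKM or more and 0.29 with median-ratio scaling. Same-numbered libraries had correlated deviations of 0.0573 to 0.139, all above 0. The labels do not say that the numbers mark a shared animal or day, so the fit did not take them as pairs. In all 4 knockout-experiment groups replicate 1 nevertheless had the lower depth and more genes at 0. Small noncoding RNAs made up 2.96% to 6.75% of CPM in replicate 1 and 15.2% to 19.3% in replicate 2. What the numbers mark is not given, and differences within a replicate number are a description. With a replicate block 0 members and 1 gene were called in each knockout and in their difference. The depth of the first K8Cre+ library, 8.60 in units of 1000000 reads, sets the highest detection limit, 0.349 CPM for 3 reads.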
